A study of Homo sapiens with 6 samples.

Results

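The genes described are TP63, NGFR and a set of basal epithelial genes outside the keratins and hemidesmosomes, namely BNC1, TRIM29, FAT2, PERP and SFN. They were chosen by symbol through their Ensembl identifiers, and all 7 were found among the 19469 genes of the count table. The human pancreatic carcinoma line L3.6pl was sorted by FACS on surface L1CAM into L1high (labelled L1CAM_POSITIVE) and L1low (labelled L1CAM_NEGATIVE) cells, with dead cells gated out. RNA of 3 L1high and 3 L1low libraries was sequenced. Both groups are the same untreated line, grown in DMEM with serum and antibiotics, and the labels name no difference between them but the sort. The labels write the line as L6.6pl in one field and L3_6PL in the titles, and their disease field names an adenosquamous carcinoma of the pancreas. Nothing in the labels says whether the replicates were separate cultures or sorts, so p-values measure the spread between these libraries, which may be technical. In bulk RNA of this kind, fewer cells that express a gene and less RNA per cell cannot be told apart.

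Basal cells are the layer of a stratified or pseudostratified epithelium that rests on the basement membrane and divides to renew the layers above. The transcription factor p63, encoded by TP63, is required to form such epithelia and is the usual marker of basal cells and of squamous tumors, in the pancreas also of adenosquamous ones. NGFR, the low-affinity neurotrophin receptor p75NTR, marks basal cells in several epithelia as well as Schwann and neural crest cells. Pancreatic ducts are lined by a simple, glandular epithelium.

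The counted reads per library ran from 16334610 to 21064685. Values per library are CPM, read counts scaled to a common library total with edgeR's TMM factors over the 6 libraries. The quasi-likelihood test of edgeR compared L1low with L1high over the 5 libraries that the study's own table compares, which leaves out L1high replicate 3, and then over all 6. A gene is said to have risen or fallen where its p, adjusted by Benjamini-Hochberg over all genes tested, was under 0.05. Log2 fold changes are L1low over L1high and, where not stated otherwise, from the 5 libraries, with their standard error as SE. The sorting marker L1CAM stood at 84.0, 69.8 and 89.5 CPM in the L1high libraries and at 17.7, 23.7 and 20.0 in the L1low libraries, so every library sat on the side of its label (log2 fold change -1.90). All 9 markers of epithelial cells were measured, among them EPCAM, CDH1 and KRT8, and their summed level ran from 4823 to 5462 CPM in L1high and from 5296 to 5695 in L1low libraries. Of these, KRT19 rose, and EPCAM and CLDN7 fell. Of the markers of other cell types, 2 of 8 for fibroblasts (8.65 to 9.80 CPM summed in L1high, 10.2 to 11.4 in L1low), 1 of 5 for leukocytes (8.42 to 8.81 and 9.37 to 11.3) and 1 of 4 for endothelium (11.3 to 11.9 and 13.2 to 14.7) were measured. None of these 4 genes was called, and their part in the results was not tested. The fibroblast marker ACTA2 and the leukocyte marker CD68 share their loci with genes of higher counts, whose reads may be mixed with theirs. The other markers of these cell types, such as COL1A2, PTPRC and CDH5, were not found by symbol in the count table, so they were not analysed here.

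TP63, NGFR, FAT2 and TRIM29 rose in L1low cells, while SFN, BNC1 and PERP did not pass the test. TP63 was 2.12-fold and NGFR 3.48-fold higher in L1low cells, FAT2 1.61-fold and TRIM29 1.26-fold. Thus 4 of the 7 genes were called higher and none lower, where 4.41% of all 19469 genes were called higher, 3.15% lower and 7.57% in either direction. Over all 6 libraries the counts were again 4 higher and 0 lower, with 4.58% and 3.37% of the 19467 genes tested. For 6 of the 7 genes the 3 L1low libraries all lay above the 3 L1high libraries, as they did for 15.2% of all genes. The median log2 fold change of the 7 genes was 0.33, against 0.0016 over all genes tested.

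The sequence just upstream of the annotated start is given for TP63 and FAT2, which rose, and for SFN, which did not pass the test, to show how unlike these upstream regions are. RefSeq's promoter table (GRCh38.p14) held 5 of the 7 genes and did not list NGFR and TRIM29. Each run is the 250 bases before the start, read 5′ to 3′ on the gene's strand. Capitals mark matches, on either strand, to one of a few motifs, chosen from general knowledge and after the sequences had been seen.
TP63, chr3:189631139-189631388, plus strand: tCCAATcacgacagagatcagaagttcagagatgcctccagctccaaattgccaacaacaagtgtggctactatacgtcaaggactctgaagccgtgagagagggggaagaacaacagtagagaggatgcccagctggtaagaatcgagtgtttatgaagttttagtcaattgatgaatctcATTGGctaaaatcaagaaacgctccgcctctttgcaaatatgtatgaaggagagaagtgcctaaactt
FAT2, chr5:151591332-151591581, minus strand: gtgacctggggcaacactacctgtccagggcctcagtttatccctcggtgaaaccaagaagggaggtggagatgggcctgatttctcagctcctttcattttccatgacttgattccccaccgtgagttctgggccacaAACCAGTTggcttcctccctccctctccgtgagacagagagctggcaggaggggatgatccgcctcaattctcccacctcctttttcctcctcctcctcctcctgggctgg
SFN, chr1:26862899-26863148, plus strand: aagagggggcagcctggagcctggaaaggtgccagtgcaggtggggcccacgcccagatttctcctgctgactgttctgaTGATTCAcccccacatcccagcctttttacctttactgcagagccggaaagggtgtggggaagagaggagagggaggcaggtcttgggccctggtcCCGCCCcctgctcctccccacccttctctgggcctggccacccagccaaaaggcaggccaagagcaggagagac
The TP63 window held the CCAAT box (CCAAT) at 2 places, a motif found in 32.0% of the 35116 RefSeq windows of the same length. The capitals in FAT2 are a Grainyhead motif (AACNGGTT), present in 1.49% of windows. SFN held an AP-1 motif (TGANTCA, 6.57% of windows) and a GC box (GGGCGG, 42.6%). PERP also held an AP-1 motif and several GC boxes, of which 2 overlap, and BNC1 held GC boxes only. No window of the 5 genes held the letters of the TEAD motif (GGAATG, 11.9%) or the E-box (CACGTG, 6.34%). The GC content of the windows was 44% for TP63, 56.8% for FAT2 and 62.8% for SFN, and 77.2% for PERP and 81.6% for BNC1 at its outermost start. The window of TP63 lies before the start of the longer TA forms. TP63 has a second promoter inside the gene, from which the shorter ΔN forms of p63 start. Counts per gene cannot tell the forms apart.

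TP63 (ENSG00000073282, plus strand of chromosome 3 from 189631389 to 189897276, GRCh38) encodes p63, a DNA-binding transcription factor. It stood at 314, 301 and 283 CPM in L1high replicates 1, 2 and 3 and at 667, 668 and 614 in the L1low libraries. These levels rest on 4641 to 6670 counts in L1high and 10870 to 12120 in L1low libraries. The lowest L1low library lay far above the highest L1high library, and replicate 3 was the lowest of its group on both sides. Mean levels were 299 ± 15.9 CPM for L1high and 650 ± 31.0 for L1low (SD, n = 3 each). TP63 rose by 1.09 on the log2 scale in the 5 libraries (SE 0.08, edgeR adjusted p = 3.9e-06) and by 1.12 in all 6 (adjusted p = 4.7e-06). By p, TP63 ranked 8 among the 859 genes called higher, and by log2 fold change it ranked 100.

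NGFR (ENSG00000064300, plus strand of chromosome 17 from 49495293 to 49515008) encodes p75NTR, a death-domain receptor of the TNF receptor family that binds all neurotrophins. It had the lowest level of the 7 genes and the largest change. NGFR stood at 10.9, 9.15 and 12 CPM in the L1high libraries and at 32.9, 35.7 and 35.7 in the L1low libraries. The counts behind these were 232, 188 and 197 in L1high and 598, 640 and 632 in L1low libraries. No L1high library came near the L1low ones, whose mean was 34.8 ± 1.59 CPM against 10.7 ± 1.44 (SD, n = 3 each). NGFR rose by 1.80 on the log2 scale in the 5 libraries (SE 0.12, edgeR adjusted p = 3.9e-06) and by 1.70 in all 6 (adjusted p = 4.9e-06). It ranked 7 by p and 12 by log2 fold change among the 859 genes called higher. NGFR-AS1, a lncRNA on the opposite strand of the locus, held only 8 to 36 counts per library. Its log2 fold change of 1.54 was called over the 5 libraries (adjusted p = 0.043 from the same edgeR test) but not over all 6 (1.07, adjusted p = 0.13). The strand option of the counting is not given in the sources used here, so reads of the 2 genes cannot be told apart. Of 7 markers of Schwann and neural crest cells, MBP, ERBB3 and FOXD3 were measured. Their summed level was 50.7 to 54.1 CPM in L1high and 46.3 to 48.2 in L1low libraries, so it did not rise beside NGFR. The others, such as SOX10 and S100B, were not found by symbol in the count table, so they were not analysed here.

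**Figure D1:**
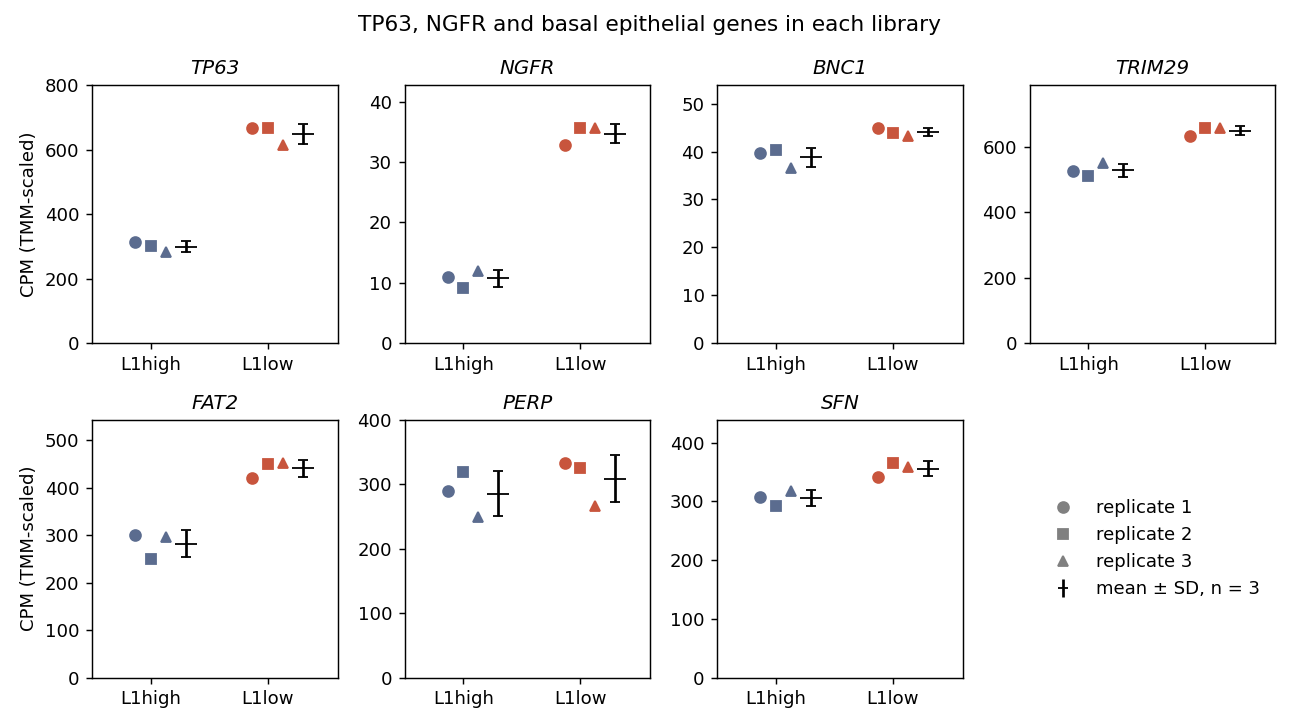
TMM-scaled CPM (vertical axes from 0) of the 7 genes in each library of the L1high and L1low groups, with symbols for replicates and the mean ± SD (n = 3) beside the points. The L1low points lie above all L1high points for every gene but PERP.

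FAT2 (ENSG00000086570, minus strand of chromosome 5 from 151504092 to 151591331) encodes a giant atypical cadherin of squamous epithelial cells. It stood at 301, 251 and 296 CPM in the L1high libraries and at 421, 450 and 453 in the L1low libraries. The groups did not overlap, and L1high replicate 2 was the lowest of all. FAT2 rose by 0.69 in log2 terms (SE 0.09, edgeR adjusted p = 4.0e-04) in the 5 libraries and by 0.64 in all 6 (adjusted p = 3.7e-04). On the opposite strand, the lncRNA gene ENSG00000271795 overlaps FAT2, with 462 to 767 counts per library against 4854 to 8070 for FAT2. It also rose (log2 fold change 0.71, adjusted p = 0.0021), and its reads cannot be told apart from those of FAT2 without the strand setting. The microRNA gene MIR6499 lies within FAT2 on the same strand and held 27 to 57 counts.

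TRIM29 (ENSG00000137699, minus strand of chromosome 11 from 120111286 to 120185529) encodes a tripartite-motif protein, also called ATDC, that is found in basal keratinocytes and in several carcinomas. It was at 526, 512 and 551 CPM in the L1high libraries and at 635, 658 and 659 in the L1low libraries. The groups did not overlap, and every L1low library lay above every L1high library. TRIM29 rose by 0.33 in log2 terms (SE 0.07, edgeR adjusted p = 0.010) in the 5 libraries and by 0.30 in all 6 (adjusted p = 0.0094). The call was lost without L1high replicate 1 (adjusted p = 0.073 in the same edgeR test) and without L1low replicate 2 (adjusted p = 0.099).

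SFN, BNC1 and PERP did not pass the test. SFN (ENSG00000175793, plus strand of chromosome 1 from 26863149 to 26864456) encodes stratifin, the sigma form of the 14-3-3 proteins, which epithelial cells make in stratified layers. It stood at 308, 292 and 319 CPM in the L1high libraries and at 342, 366 and 359 in the L1low libraries. The groups did not overlap, yet edgeR gave an adjusted p of 0.051 in the 5 libraries (log2 fold change 0.25, 95% interval from 0.098 to 0.41) and of 0.057 in all 6. SFN was called in 4 of the 14 alternatives, among them DESeq2 (adjusted p = 0.044).

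BNC1 (ENSG00000169594, minus strand of chromosome 15 from 83255884 to 83284664) encodes basonuclin 1, a zinc finger protein of basal keratinocytes. It was at 39.6, 40.3 and 36.6 CPM in the L1high libraries and at 45.0, 43.9 and 43.3 in the L1low libraries. The 2 groups were close without overlapping. For BNC1 the log2 fold change was 0.15 (95% interval from -0.045 to 0.34, edgeR adjusted p = 0.34). PERP (ENSG00000112378, minus strand of chromosome 6 from 138088505 to 138107419) encodes a membrane protein of desmosomes and is a target gene of p63. Its libraries were at 289, 319 and 250 CPM in L1high and at 334, 326 and 267 in L1low cells, with overlap between the groups and replicate 3 lowest in each. For PERP the log2 fold change was 0.03 (95% interval from -0.18 to 0.25, adjusted p = 0.88 in the same test).

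**Figure D2:**
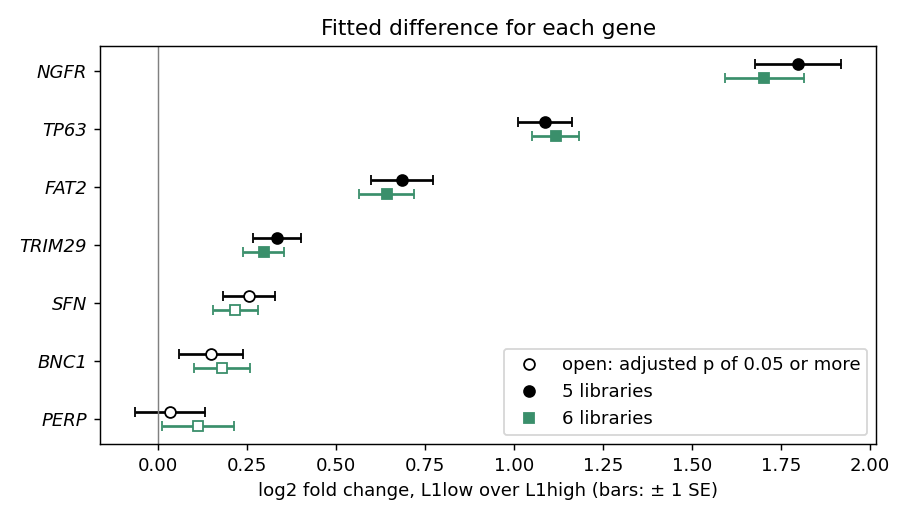
Log2 fold change of L1low over L1high cells (horizontal axis, ± 1 standard error) for each gene, fitted over 5 libraries (circles) and over all 6 (squares), with open symbols where the adjusted p was 0.05 or more. NGFR, TP63, FAT2 and TRIM29 are filled in both fits, and SFN, BNC1 and PERP are open in both.

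Levels were compared between genes as CPM per kilobase of the union of a gene's annotated exons, a scale that depends on the annotated forms. The reads were aligned with BWA, which is not splice-aware. Whether this changed the order between genes of few and of many exons, such as SFN and TP63, was not tested. In L1high cells the order of these levels was SFN (234 ± 10.1, SD, n = 3), PERP (68.1 ± 8.26), TRIM29 (52.8 ± 1.96), TP63 (40.0 ± 2.13), FAT2 (19.2 ± 1.87), BNC1 (7.92 ± 0.409) and NGFR (2.58 ± 0.348). In L1low cells TP63 (86.9 ± 4.15) came second, after SFN (272 ± 9.36). PERP (73.6 ± 8.68), TRIM29 (64.8 ± 1.34), FAT2 (30.0 ± 1.19), BNC1 (8.98 ± 0.176) and NGFR (8.39 ± 0.385) followed. TP63 thus moved from rank 4 to rank 2 on this scale. PERP and TRIM29 overlapped between libraries in L1low cells, from 63.6 to 79.5 and from 63.2 to 65.6, so their order there is not settled. NGFR and BNC1 were neighbours in L1low cells, where NGFR reached 8.62 and BNC1 began at 8.82.

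**Figure D3:**
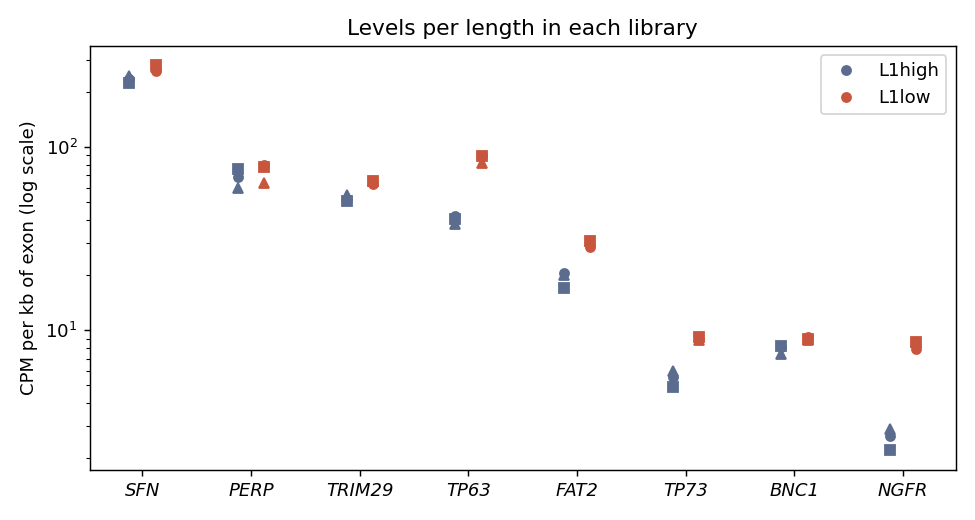
CPM per kilobase of annotated exon (vertical axis, log scale) for the 7 genes and for TP73, with L1high libraries in blue and L1low libraries in red and symbols for replicates. TP63 lies below TRIM29 and PERP in L1high libraries and above both in L1low libraries, and NGFR is lowest in both groups.

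TP73, the closest relative of TP63, rose beside it. TP73, whose product p73 shares the DNA-binding fold of p63, stood at 37.7, 33.3 and 40.5 CPM in the L1high libraries and at 60.8, 62.0 and 60.0 in the L1low libraries. The groups did not overlap. TP73 rose by 0.79 on the log2 scale (SE 0.09, edgeR adjusted p = 2.1e-04). TP73-AS1 and WRAP73 overlap TP73 on the opposite strand. TP73-AS1 held 559 to 725 counts per library and also rose (log2 fold change 0.43, adjusted p = 0.021), and its reads cannot be told apart from those of TP73 without the strand setting. Per kilobase of exon, TP73 ran from 4.92 to 5.99 CPM in L1high and from 8.86 to 9.16 in L1low libraries, far below TP63 in both. TPRG1, which lies beside TP63 on chromosome 3, rose by 0.60 on the log2 scale (SE 0.11). ITCH, WWP1 and FBXW7, which encode ubiquitin ligases or their subunits that act on p63, did not pass the test.

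Genes known as basal epithelial markers or p63 targets were taken as a list of 40, all of them measured. Of these, 17 rose, 3 fell and 20 did not pass the test, with a median log2 fold change of 0.22. When 1 library was left out, the counts ran from 14 to 19 higher and from 2 to 3 lower. The largest rises were those of COL17A1 (log2 fold change 1.37), the transmembrane collagen of hemidesmosomes, FGFR2 (1.36), a receptor for keratinocyte growth factor, and JAG2 (1.30), a Notch ligand. FGFR2 stood at 4.57, 3.94 and 4.02 CPM in the L1high libraries and at 11.5, 11 and 10.1 in the L1low libraries. JAG2 stood at 63.6, 47.2 and 64.4 CPM in the L1high libraries and at 131, 136 and 140 in the L1low libraries, and it shares its locus with a lncRNA gene and MIR6765 on the same strand. In all 3 genes the groups were far apart. Among those that fell were VSNL1 (-1.62), a neuronal calcium sensor, and KRT6A (-0.58), a keratin of activated keratinocytes. Reads of KRT6A can be split with its near-identical neighbours KRT6B and KRT6C, so its level is uncertain.

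Of the classic pair of basal keratins, KRT14 rose and KRT5 did not pass the test. KRT5 was abundant, with a mean level of 3028 ± 42.5 CPM for L1high and 3283 ± 123 for L1low (SD, n = 3 each). Its groups did not overlap, but the log2 fold change of 0.14 was not called (edgeR adjusted p = 0.23). KRT14, its partner, stood at 78.7, 71.1 and 80.4 CPM in the L1high libraries and at 99.0, 107 and 110 in the L1low libraries. KRT14 rose by 0.50 on the log2 scale (edgeR adjusted p = 0.0034), and its reads can be split with the similar KRT16 and KRT17 and their pseudogenes.

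Of 29 listed transcription factors of stratified epithelia, 23 were measured, with a median log2 fold change of -0.03. Of the 23, 2 rose and 4 fell, against 4.41% and 3.15% of all genes, and 17 did not pass the test. Over other sets of libraries 0 to 2 rose and 3 to 6 fell, with no rise without L1low replicate 2. Among the falls were those of GRHL3 (-1.14, SE 0.15) and ZNF750 (-1.09, SE 0.09), factors known from the upper, differentiating layers of the epidermis. Not all listed factors of differentiation fell, as KLF4 (0.17) and PRDM1 (-0.03) were among the 17 that did not pass. ZNF750, itself a known target of p63, stood at 56.8, 57.1 and 58.2 CPM in the L1high libraries and at 27.1, 27.4 and 25.3 in the L1low libraries. GRHL3 stood at 14.4, 11.5 and 11.8 CPM in the L1high libraries and at 6.22, 5.35 and 5.99 in the L1low libraries. Neither gene overlapped between the groups. TBCD overlaps ZNF750 and STPG1 overlaps GRHL3 on the opposite strand, with log2 fold changes of -0.02 and 0.05, neither called. ELF3 (0.45), an epithelial ETS factor, and RUNX1 (0.46) rose. The call of ELF3 was lost without L1low replicate 2 (adjusted p = 0.060), and that of RUNX1 without L1high replicate 1, L1low replicate 1 or L1low replicate 2 (up to 0.13). Over all 6 libraries GRHL1 (-0.49) and OVOL1 (-0.51) were also called, which gave 6 falls.

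Factors and products of glandular and pancreatic identity were measured for 11 of 26 listed genes. Of these, 1 was called, a share near the 7.57% of all genes called. This was SOX9, a factor of ductal progenitor cells. It fell from 29.9, 31.4 and 27.9 CPM in the L1high libraries to 13.6, 17.3 and 13.8 in the L1low libraries, with a log2 fold change of -1.03 (SE 0.12, edgeR adjusted p = 2.5e-04). GATA6 stood low in both groups, at mean levels of 5.45 CPM in L1high and 6.04 in L1low cells. PDX1 and HNF4A were not found by symbol in the count table, so they were not analysed here.

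**Figure D4:**
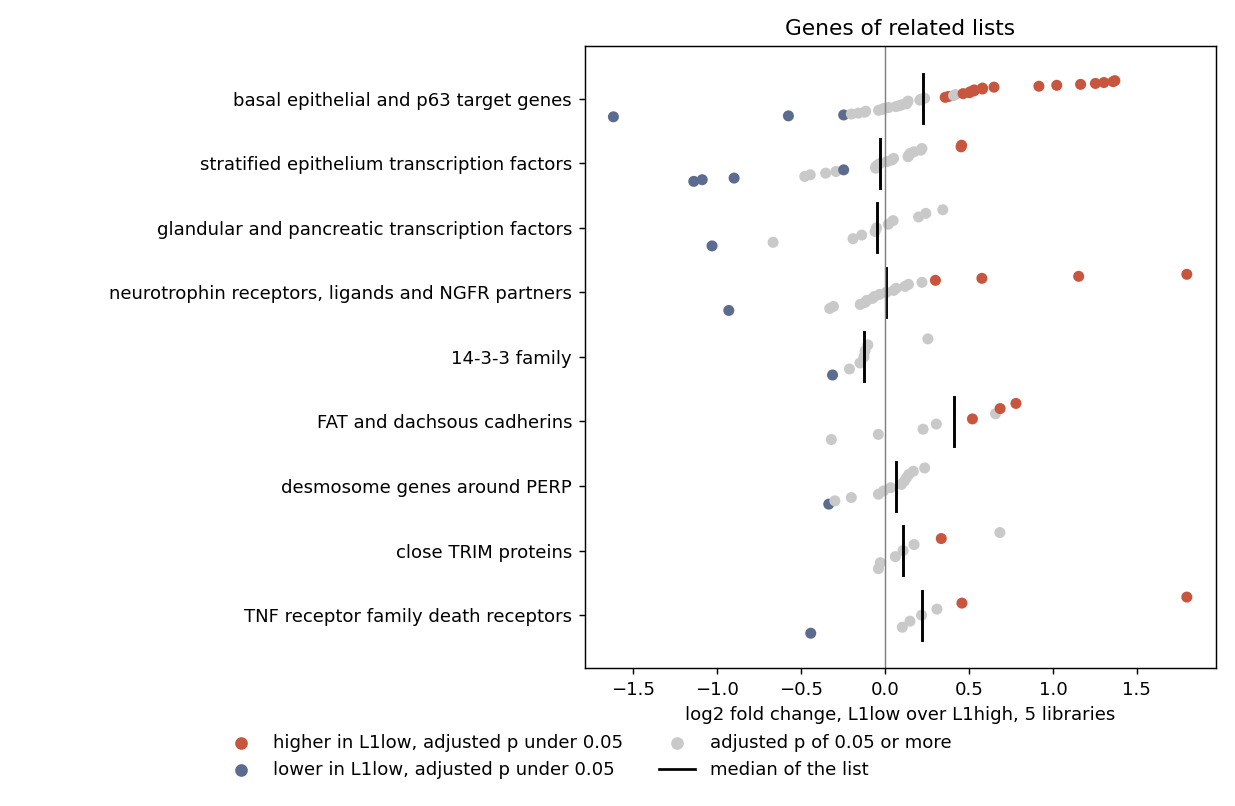
Log2 fold change of L1low over L1high cells over 5 libraries (horizontal axis) for each measured gene of the related lists (vertical axis), in red or blue where it rose or fell, grey where it did not pass the test, with a black line at the list's median. The basal and p63 target list reaches from -1.62 for VSNL1 to 1.37 for COL17A1, and NGFR at 1.80 is the point farthest right.

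Of the neurotrophin receptors, NTRK2 fell where NGFR rose. NTRK2 encodes TrkB, the tyrosine kinase receptor for BDNF and neurotrophin 4, and was at 103, 113 and 95.5 CPM in the L1high libraries and at 58.7, 56.2 and 53.6 in the L1low libraries. This was a log2 fold change of -0.93 (SE 0.08, edgeR adjusted p = 2.3e-05), opposite in sign to that of NGFR, and the groups did not overlap. The ratio of NTRK2 to NGFR counts was 9.41, 12.3 and 7.95 in the L1high libraries and 1.78, 1.58 and 1.5 in the L1low libraries. These counts are not scaled for length, and the annotated exons span 33162 bases for NTRK2 and 4141 for NGFR. The ratio thus compares the groups, not the levels of the 2 genes. Per kilobase of exon, NTRK2 stood at 3.13 CPM in L1high and 1.69 in L1low cells on average, and NGFR at 2.58 and 8.39. Counts per gene cannot tell full-length TrkB from its truncated forms. NTF4, which encodes neurotrophin 4, a ligand of both receptors, stood at 5.37, 4.53 and 5.91 CPM in L1high and 11.6, 10.4 and 11 in L1low libraries. Its log2 fold change was 1.15 (SE 0.16, edgeR adjusted p = 6.0e-04). ENSG00000283663 overlaps NTF4 on the same strand with a like number of counts (mean 136 against 149) and a log2 fold change of 1.38, so the 2 genes cannot be told apart. SORT1, which encodes sortilin, the co-receptor of NGFR for pro-neurotrophins, did not pass the test (log2 fold change -0.11, adjusted p = 0.49). NTRK3 and BDNF were not found by symbol in the count table, so they were not analysed here.

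**Figure D5:**
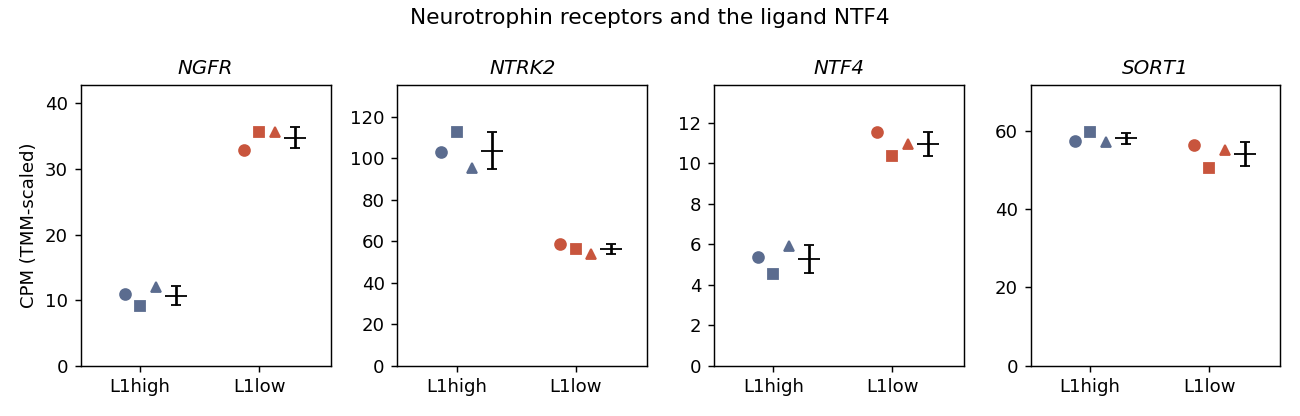
TMM-scaled CPM (vertical axes from 0) of NGFR, NTRK2, NTF4 and SORT1 in each library, with the mean ± SD (n = 3) beside the points and symbols for replicates as in the plot of all 7 genes. NGFR and NTF4 lie higher and NTRK2 lower in the L1low libraries, and SORT1 lies between 50.5 and 59.8 CPM in all.

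Of the 31 listed neurotrophin receptors, ligands and NGFR partners, 19 were measured, with a median log2 fold change of 0.0064. Called higher were 4, NGFR included, and 1 was called lower, against 4.41% and 3.15% of all genes. The adaptor SHC1 rose (0.58, SE 0.07), and so did MAGED1 (0.30), which encodes the NGFR-binding protein NRAGE. The call of MAGED1 was lost without L1high replicate 1, L1high replicate 2, L1low replicate 2 or L1low replicate 3 (adjusted p up to 0.18). ADAM17, which encodes a protease that cleaves NGFR, did not pass the test. Of the 7 measured death receptor genes of the TNF receptor family, NGFR and TNFRSF21 (0.46) rose and FAS (-0.44) fell. The call of FAS was lost without L1high replicate 1, L1high replicate 2 or L1low replicate 2 (adjusted p up to 0.13), and that of TNFRSF21 without L1high replicate 1 or L1low replicate 2 (up to 0.073). SHC1, FAS, ELF3, YWHAH and COL17A1 share their loci with other genes, whose reads may be mixed with theirs.

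Among the relatives of FAT2, CELSR1 and FAT1 also rose. Of 8 measured genes of the FAT, dachsous and CELSR group, 3 rose and none fell, against 4.41% and 3.15% of all genes. The median log2 fold change of the group was 0.41. The 3 that rose were CELSR1 (0.78, SE 0.09), a planar polarity cadherin, FAT2 itself and FAT1 (0.52, SE 0.07). FAT1 stood at 337, 310 and 341 CPM in the L1high libraries and at 448, 462 and 475 in the L1low libraries. TRIM29 was the one gene called among the 7 measured TRIM genes, where 7.57% of all genes were called in either direction. Among the 14-3-3 genes, SFN was the one with a positive log2 fold change, and of the other 6 YWHAH fell (-0.31, edgeR adjusted p = 0.035). The call of YWHAH was lost without L1high replicate 1, L1high replicate 2, L1low replicate 2 or L1low replicate 3 (adjusted p up to 0.18).

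Around PERP, 1 of 12 measured desmosome genes was called, a share near the 7.57% of all genes called. DSP, which encodes desmoplakin, fell from 565, 529 and 592 CPM in the L1high libraries to 421, 427 and 445 in the L1low libraries (log2 fold change -0.34, edgeR adjusted p = 0.012). That call was lost without L1low replicate 2 (adjusted p = 0.10). Over all 6 libraries DSC3, which encodes desmocollin 3, was also called (log2 fold change 0.29, adjusted p = 0.0499).

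The genes whose log2 CPM over the 6 libraries was most like that of TP63, by Pearson's r among 17022 genes averaging 1 or more on that scale, were CYP24A1, PLD4, EFEMP1, COL14A1 and FAM110C, with r from 0.998 to 0.999. CYP24A1, which encodes the enzyme that breaks down vitamin D, stood at 42.2 CPM in L1high and 92.9 in L1low cells on average. For NGFR they were C1orf116, COL17A1, ENSG00000219951, MIR614 and DDIT4, with an r of 0.999 or more. The 6 libraries form 2 groups, so such values reflect the difference between the groups. An r over 0.95 was found for 475 genes with TP63 and for 626 with NGFR.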

How the data were processed

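RNA of 3 L1high and 3 L1low libraries was analysed. Per the study's methods, stranded mRNA libraries were sequenced from both ends, aligned with BWA to GRCh38, and counted by featureCounts on the genes of Ensembl release 94. BWA is not a splice-aware aligner. The labels also name DESeq2. Versions and the strand and multi-mapping options are not given in the sources used here. The authors deposited unnormalized counts for 19469 genes, each above 1 CPM in at least 2 libraries. GENCODE release 44 gave symbols for 19344 identifiers, as well as coordinates and exon lengths.

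From these counts, edgeR 4.0.16 in R 4.3.3 was run with TMM factors, filterByExpr and the quasi-likelihood test on all genes, with Benjamini-Hochberg adjustment. Standard errors are the log2 fold change divided by the square root of F, and 95% intervals use the test's degrees of freedom. The main fit used the 5 libraries of the study's table, no reason being given for leaving out L1high replicate 3. The median standard error was 0.09 at an average log2 CPM of 5 and above. Log2 CPM used a prior count of 2. Tested on simulated counts in which 200 of 19469 genes differed by a log2 fold change of 1, the 5-library fit recovered 164 (82%), and 14 of its 178 calls were false. By chi-square per degree of freedom the closest pair of libraries within a group stood at 3.66, so no such pair was the same library sequenced again. Pairs across the groups were not compared. This value cannot tell repeat libraries of the same RNA from separate samples.

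The genes and lists were chosen from general knowledge, with earlier results of these data known. Named genes are the 7 genes, L1CAM, up to 4 called genes of each list by size, TP73, the neurotrophin receptors with SORT1, KRT5, KRT14 and the 5 genes most like TP63 and NGFR. Other named genes were chosen after their values were seen, and some genes under these rules are not reported here. The alternatives tried were the 6 libraries together, leaving out each replicate, a replicate block, DESeq2 1.42.0, edgeR's exact test, other scalings and other filters on low counts.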

Additional observations from a re-analysis of the deposited data

How the results depend on the processing

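TP63, NGFR and FAT2 were called higher under all 14 alternatives, with log2 fold changes from 1.06 to 1.15, from 1.6 to 1.83 and from 0.56 to 0.72. BNC1 and PERP were called under none, with adjusted p from 0.16 to 0.55 and from 0.29 to 0.98. PERP turned below 0 without L1low replicate 1 (log2 fold change -0.027) and without L1low replicate 2 (-0.010), and reached 0.20 without L1high replicate 2. TRIM29 was called under 12 and SFN under 4, with adjusted p from 0.0014 to 0.099 and from 0.037 to 0.25. The number of the 7 genes called higher ran from 3 to 5 when a replicate was left out. Leaving out L1high replicate 1 or 2 meant using L1high replicate 3 in its place. Leaving out an L1low replicate put nothing in its place, so those fits held fewer libraries than the main fit.

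Over all genes, 551 to 1649 were called when a replicate was left out, against 1473, with the lowest count without L1low replicate 2 and 674 without L1high replicate 1. The replicate numbers were not taken as pairs. Deviations of same-numbered libraries correlated by 0.074, 0.091 and 0.21, each the highest for its libraries, a hint from the data and not from the design. With the number as a block over all 6 libraries, 2363 genes were called, and 5 of the 7, SFN with them. NGFR-AS1, with 8 to 36 counts per library, was called over 5 libraries and not over all 6. Leaving out the filter removed no gene and tests nothing.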
